A study of Sus scrofa with 2 samples.

Results

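In a droplet library of sow endometrium, 473 barcodes held few molecules and few ribosomal protein transcripts but at least 1 transcript of ESR1, the gene of oestrogen receptor alpha. They were 3.13% (exact Clopper-Pearson 95% interval 2.86 to 3.42%) of the 15093 barcodes of that library, out of 25138 barcodes in both libraries of the series. Each was chosen from its unique molecular identifier (UMI) counts, which count distinct captured transcripts. A barcode qualified with 500 to 2500 UMIs in all, under 3% of them from genes whose symbols match the ribosomal protein pattern, at least 1 UMI of ESR1 (ENSSSCG00025044932), and 0 UMIs of 5 genes that mark other lineages. Those 5 were PTPRC (leukocytes), PLVAP (fenestrated endothelium), PDGFRA (fibroblasts), RGS5 (pericytes) and COL3A1 (collagen-producing stroma). The barcodes that met the rule are called members below. The total, the ribosomal share, ESR1 and the 5 excluded genes chose them, so values of these are a description of the choice.

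The series holds 2 libraries of dissociated endometrium, the inner lining of the uterus, from Yorkshire sows aged 3 years that had conceived by artificial insemination, sampled from the uterine horns. Its design names 1 sow at day 13 of gestation, in the receptive period, and 1 sow at day 7, before it. No sample label says which library came from which day, so the libraries are called library 2, which held all 473 members, and library 1, although the name of the deposited matrix presents library 2 as the receptive one. With 1 library and 1 animal per stage there is no replicate, nothing below was tested, and all intervals cover counting error only.

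ESR1 is a nuclear receptor that binds oestradiol and regulates transcription. In the uterus it is made in the epithelium of the surface and the glands and in the stroma beneath, and its level in epithelium changes over the cycle and in early pregnancy. Ribosomal protein transcripts are among the most abundant messengers in the cytoplasm, while unspliced transcripts of genes with long introns are mostly in the nucleus.

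The rule was applied in steps. Of the 15093 barcodes of library 2, 3845 (25.5%) held 500 to 2500 UMIs. Of these, 1853 (48.2%) had a ribosomal share under 3%. Of those, 1009 (54.5%) had the 5 excluded genes at 0, and 473 of the 1009 (46.9%) had an ESR1 UMI. The same rule found 0 members in library 1, where 16 of 2969 barcodes of that depth (0.539%) had a ribosomal share under 3%. A count of 0 among the 10045 barcodes of library 1 allows a share, taken as 3 counts, of up to 0.0299%. The libraries differed as a whole in this measure, with a median ribosomal share of 5.24% in library 2 and 13.4% in library 1. The libraries shared 48 barcode sequences, 1 of them a member. Scrublet called 2415 barcodes of library 2 doublets, 4 of them members.

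The 473 members held 699124 UMIs together. Their totals ran from 536 to 2438 UMIs (median 1440), their detected genes from 443 to 1599 (median 961), and their ribosomal shares from 0.471 to 2.997% (median 1.83%). Thinned to 500 UMIs each, members had a median of 412 genes, against 391 in deep keratin-marked barcodes, which are described below. Other sets of 500 to 2500 UMIs, also described below, were near members. The median was 414 in ribosome-richer ESR1-positive barcodes, 412.5 in ESR1-zero low-ribosomal ones and 416 in low-ribosomal ones with an excluded gene. The ribosomal limit did not fall in a gap. The 3 highest shares inside were 2.997, 2.993 and 2.991%, and the 3 lowest outside, among barcodes that met every other condition, were 3.007, 3.019 and 3.030%. There were 80 members from 2.5 to 3% and 52 such barcodes outside from 3 to 3.5%. The highest totals inside were 2438, 2415 and 2412 UMIs, and the lowest outside 2510, 2529 and 2543 UMIs, with 116 otherwise qualifying barcodes above 2500 UMIs. Within the members, the deeper barcodes had the lower ribosomal share: its median was 2.58% in the 65 members under 1000 UMIs and 1.38% in the 76 members from 2000 UMIs upwards.

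**Figure D1:**
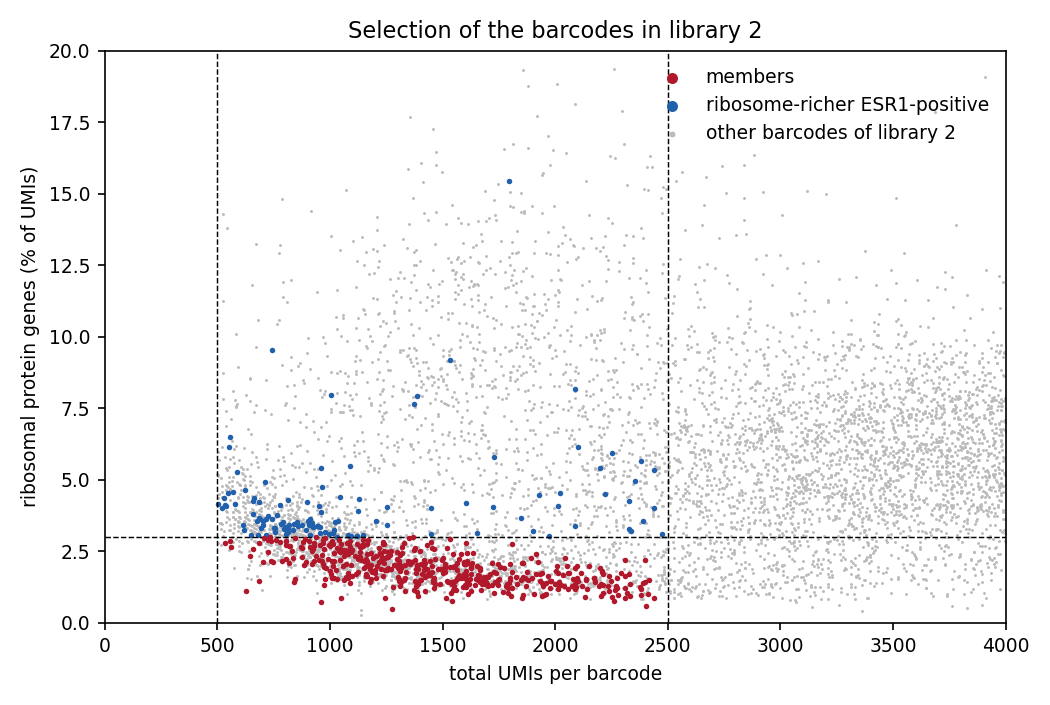
Each point is a barcode of library 2 with at most 4000 UMIs, placed by its total UMIs (x axis) and by the percentage of its UMIs from ribosomal protein genes (y axis, to 20%). Dashed lines mark 500 and 2500 UMIs and 3%; the 473 members (red) run without a gap into the 121 ribosome-richer ESR1-positive barcodes (blue).

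Several sets of library 2 served for comparison, none overlapping the members. The ribosome-richer ESR1-positive barcodes (121) met every condition except that their ribosomal share was 3% or more. The ESR1-zero low-ribosomal barcodes (536) met every condition except ESR1. The low-ribosomal barcodes with an excluded gene (844) had the same depth and a share under 3% but held a UMI of at least 1 of the 5 genes. The deep keratin-marked barcodes (810) had over 2500 UMIs, the 5 genes at 0 and at least 5 UMIs of KRT8 and KRT18 together, keratins of simple epithelium. Their median total was 7347 UMIs and their median ribosomal share 5.49%. Levels are counts per 1000000 UMIs (CPM) over all barcodes of a set, and ratios are log2 ratios of these. They are not scaled for gene length, so they compare sets and not genes.

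Markers of epithelium were present in the members. They were checked because the files give these barcodes no cell type. All 19 epithelial genes with a symbol had UMIs, and 471 of 473 members held at least 1 such UMI (0 to 23 per barcode, median 8). Low-ribosomal PTPRC-positive barcodes also had UMIs for all 19, so detection of the list did not set members apart. Its summed level was 6053 CPM in members, 1958 CPM in low-ribosomal PTPRC-positive and 3537 CPM in low-ribosomal COL3A1-positive barcodes. PAX8, a transcription factor of epithelium derived from the Müllerian duct, was at 1428 (1340.3 to 1519) CPM and was found in 361 members. It stood at 283 CPM in low-ribosomal PTPRC-positive barcodes and at 65.4 CPM in ribosome-richer PTPRC-positive ones, sets that should lack it. CLDN7, a tight junction claudin, was at 678 CPM in members, against 205 and 129.9 CPM in those 2 sets. Keratins were sparse: KRT8 was found in 109 members and KRT18 in 82. Thinned to 500 UMIs, 8.88% of members had a KRT8 UMI, against 4 of 87 low-ribosomal PTPRC-positive barcodes, whose median total of 1632 UMIs was close to the 1440 UMIs of members. EPCAM, CDH1, KRT7 and KRT19 have no symbol in the deposited gene table and were not analysed here.

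Against the low-ribosomal barcodes with an excluded gene, the epithelial list stood higher in members. Of its 18 compared genes, 17 were higher and 1 lower, 2 of them at least 2-fold higher, with a median log2 ratio of 0.73. Over all 11732 genes compared, 6.62% were at least 2-fold higher and 18.6% at least 2-fold lower, with a median of -0.14. ESRP1, a regulator of epithelial splicing, was at 265 CPM in members and 117 CPM in those barcodes, a log2 ratio of 1.18. EHF, an ETS transcription factor of epithelia, was at 219 and 108 CPM, a log2 ratio of 1.02. The stromal list was lower in members for 16 of 16 genes and the blood endothelial list for 16 of 16, with medians of -2.30 and -2.45. The exclusion of COL3A1, PDGFRA and PLVAP entered that difference.

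Against the deep keratin-marked barcodes the epithelial genes divided. Of 17 compared (KRT8 and KRT18 chose the deep set and were left out), 8 were higher, 8 lower and 1 undetermined at its count, with 4 at least 2-fold higher and 3 at least 2-fold lower. Over all 13267 genes compared, 19.9% were at least 2-fold higher and 14.6% at least 2-fold lower, which is 2637 and 1940 genes. With TMM scaling, which assumes that most genes do not differ, 1041 were at least 2-fold higher and 3160 at least 2-fold lower. The genes at least 2-fold higher were ESRP1, PAX8, GRHL2 and EHF, a splicing regulator and 3 transcription factors. PAX8 was at 1428 CPM in members and 593 CPM in deep barcodes, a log2 ratio of 1.27 (1.17 to 1.37), and ESRP1 was at 265 and 98.5 CPM. GRHL2 had a log2 ratio of 1.17 and EHF one of 1.17. The genes at least 2-fold lower were SPINT2, a protease inhibitor, FOXA2, a transcription factor of glands, and RAB25, a GTPase of epithelial membrane recycling. SPINT2 was at 1137 CPM in members and 2499 CPM in deep barcodes, and RAB25, with 10 UMIs in members, had a log2 ratio of -2.13 (-3.20 to -1.24). TMM scaling would take 0.45 off every log2 ratio over the deep barcodes, which turns the positive ratios of SPINT1 (0.19) and OVOL2 (0.16) below 0. It leaves ESRP1, PAX8, GRHL2 and EHF above 0 but under 2-fold.

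**Figure D2:**
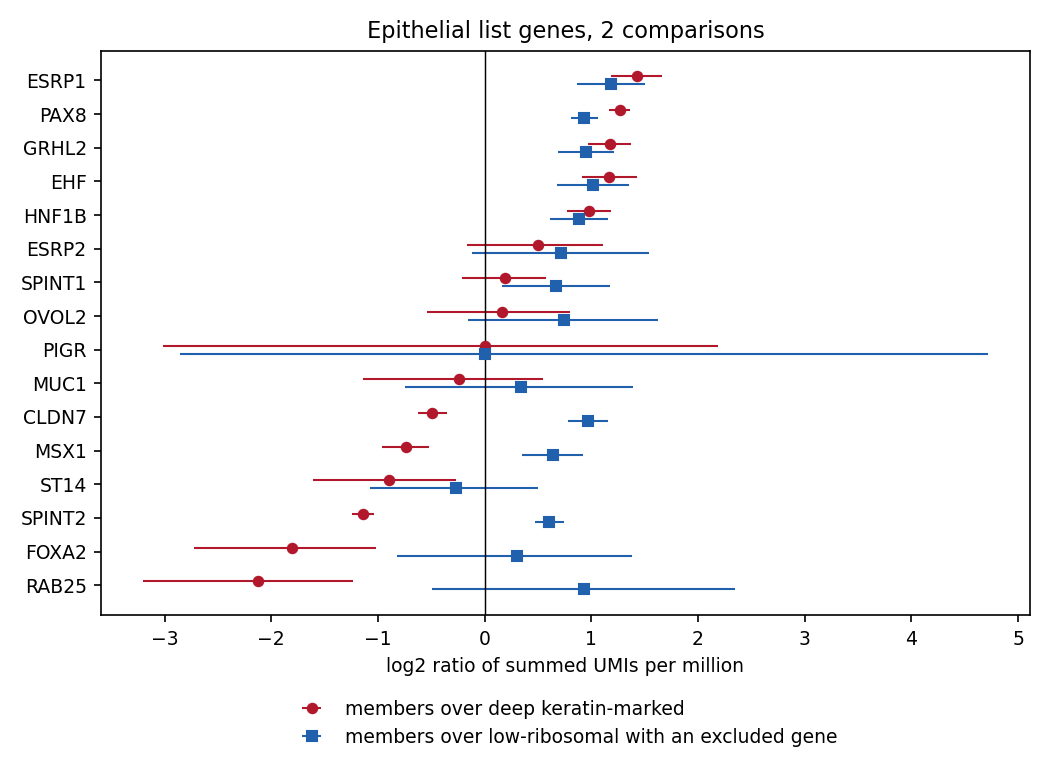
Log2 ratios of summed CPM (x axis) for 16 epithelial list genes (y axis), members over deep keratin-marked barcodes (red circles) and members over low-ribosomal barcodes with an excluded gene (blue squares); bars are exact 95% intervals and a point at 0 for PIGR is undetermined. ESRP1, PAX8, GRHL2 and EHF lie right of 0 in both comparisons, and SPINT2 lies right of 0 in one and left of it in the other.

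Some UMIs of other lineages were present in members. The sums that follow leave out the 5 excluded genes, which are at 0 in members by the rule. Each comparison set named by an excluded gene was itself chosen by that gene, and the deep keratin-marked barcodes had all 5 at 0. The T and NK cell list had UMIs for 7 of its 13 other genes and summed to 222 CPM in members, with CD3D, CD3G and PRF1 at 0 there. It was at 1124 CPM in low-ribosomal PTPRC-positive, 10236 CPM in ribosome-richer PTPRC-positive and 380.0 CPM in deep keratin-marked barcodes. The macrophage list, with 9 of 10 genes, summed to 71.5 CPM against 2629.6 CPM in low-ribosomal PTPRC-positive barcodes. The blood endothelial list, with 15 of 17 genes, was at 226 CPM against 4137 CPM in low-ribosomal PLVAP-positive ones, and VWF and SELP were at 0 in members. The muscle and pericyte list, with 11 of 12 genes, was at 338 CPM against 2286 CPM in low-ribosomal RGS5-positive ones. The stromal list had UMIs for 15 of 17 genes and was at 971 CPM in members, 12444 CPM in low-ribosomal PDGFRA-positive barcodes, 1619 CPM in low-ribosomal PTPRC-positive ones, 931 CPM in ribosome-richer PTPRC-positive ones and 298 CPM in deep keratin-marked ones. All 6 conceptus trophoblast genes and all 4 erythroid genes with a symbol were at 0 UMIs in members.

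ESR1 itself, the gene of the rule, was at 1337 (1253 to 1426) CPM in members. It was a single UMI in 245 members, 2 UMIs in 125, 3 in 50 and 4 to 9 in the other 53. In the ribosome-richer ESR1-positive barcodes, chosen by the same ESR1 condition, it was at 1314 CPM, and in the deep keratin-marked barcodes, which were not chosen by ESR1, at 430.2 CPM. Before the ESR1 condition was applied, 46.9% of the 1009 low-ribosomal barcodes with the 5 genes at 0 held an ESR1 UMI at a median total of 1269 UMIs. The share was 22.3% (18.9 to 26.0%) among 543 ribosome-richer barcodes with the 5 genes at 0, at a median total of 889 UMIs. Thinned to 500 UMIs, an ESR1 UMI remained in 252 of the 1009 low-ribosomal barcodes (22.3 to 27.8%) and in 12.5% (9.86 to 15.6%) of the ribosome-richer ones.

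Barcodes with a UMI of PTPRC or PLVAP, taken as lineages that should hold little ESR1, served as a guide to the background. How much of their ESR1 was free RNA was not tested. Thinned to 500 UMIs, 9.20% (4.05 to 17.3%) of 87 low-ribosomal PTPRC-positive barcodes and 2.15% of 790 ribosome-richer PTPRC-positive barcodes held an ESR1 UMI, and unthinned 25.3 and 4.68% at median totals of 1632 and 1640 UMIs. For PLVAP-positive barcodes the thinned shares were 10.5% of 190 low-ribosomal and 4.78% of 314 ribosome-richer ones, at median totals of 1718 and 1963 UMIs. The thinned share in the 1009 low-ribosomal barcodes was thus above these 4 shares. How many of the 245 members with 1 ESR1 UMI held it from free RNA was not tested. Stromal and mural barcodes were also often ESR1-positive: 60.2% of low-ribosomal PDGFRA-positive and 64.8% of low-ribosomal RGS5-positive barcodes held it, so ESR1 alone did not set epithelium apart.

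Of the other steroid receptors and their partners, 13 of 14 genes with a symbol had UMIs. PGR, the progesterone receptor, was found in 28 members, at 42.9 (29.0 to 61.3) CPM. It was at 36.5 CPM in ribosome-richer ESR1-positive barcodes, 35.5 CPM in deep keratin-marked barcodes and 348 CPM in low-ribosomal PDGFRA-positive barcodes, so the level in members was low beside the fibroblast-marked one. ESR2, oestrogen receptor beta, had 0 UMIs in members, which allows up to 4.29 CPM. FKBP5, a chaperone partner of steroid receptors, was found in 210 members and was at 535 CPM, against 246 CPM in deep keratin-marked barcodes, a log2 ratio of 1.12 (0.96 to 1.28). NCOA1, a coactivator of nuclear receptors, was at 269 against 108 CPM, and ARID5B at 315 against 156 CPM. PGRMC1, a membrane haem protein linked to progesterone, was at 476 against 965 CPM, and GPER1, a membrane oestrogen receptor, at 14.3 against 70.5 CPM on 10 UMIs. Of the 14 genes, 3 were at least 2-fold higher and 2 at least 2-fold lower in members than in deep barcodes, with a median log2 ratio of -0.02. These counts are near the shares over all genes, 19.9% higher and 14.6% lower. Under TMM scaling FKBP5, NCOA1 and ARID5B stay above 0 but are under 2-fold.

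The genes with the most UMIs in members were of 2 kinds. One kind were genes abundant across the library. TIMP2, an inhibitor of metalloproteinases, was at 6584 CPM, SAT1, a polyamine acetyltransferase, at 5135, FTH1, the ferritin heavy chain, at 4191, ACP5, known in the pig uterus as the secreted iron protein uteroferrin, at 4072, and UBB, ubiquitin, at 3316 CPM. These 5 were lower in members than in deep keratin-marked barcodes, by log2 ratios from -2.11 (FTH1) to -0.88 (SAT1). ATF3, ACTG1, ISG12 and RBP4 completed this kind, with log2 ratios from -2.12 (RBP4) to -0.75 (ATF3). The other kind were LEF1, a transcription factor of the WNT pathway, CADPS2, which primes secretory vesicles for release, LRCH1, CDH13, a cadherin anchored by a lipid, JAZF1, a zinc finger cofactor, and RANBP17, of the exportin family. These 6 were higher in members than in deep barcodes, by log2 ratios from 1.37 (CDH13) to 1.66 (RANBP17).

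LEF1 and CADPS2 were the most abundant of the second kind and were mostly found together. LEF1 was found in 425 members (0 to 46 UMIs per barcode, median 4), at 4311 (4159 to 4468) CPM, against 1599 (1570.1 to 1628) CPM in deep keratin-marked barcodes. CADPS2 was found in 388 members (0 to 38 UMIs per barcode, median 4), at 4091 (3942 to 4244) CPM, against 1342 (1315 to 1368) CPM. Both were found in 361 of the 473 members, and neither in 21. In PTPRC-positive barcodes LEF1 was at 1074 CPM in low-ribosomal and 338 CPM in ribosome-richer ones, and CADPS2 at 778 and 115 CPM. Thinned to 500 UMIs, 65.8% of members held a CADPS2 UMI, against 17.2 and 5.57% of these 2 sets. Both genes were thus above the level of PTPRC-positive barcodes of the same depth range. The highest level of any gene compared was that of ENSSSCG00025076010, which the files do not pair with a name, at 10281 CPM in members and 4844 CPM in deep barcodes.

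Products that the glands of the pig uterus secrete were lower in members than in deep keratin-marked barcodes. Of 24 gland secretion genes, 23 were lower and 15 at least 2-fold lower, with a median log2 ratio of -1.29. Over all genes compared, 14.6% were at least 2-fold lower and the median was 0.06. ACP5 was found in 468 members (0 to 55 UMIs per barcode, median 5), at 4072 (3924 to 4225) CPM against 16439.9 (16347 to 16533) CPM, a log2 ratio of -2.01 (-2.07 to -1.96). UABP-2, a basic protein that binds uteroferrin, was at 1572 against 6191 CPM. RBP4, a retinol carrier, was at 2166 against 9412 CPM, SLPI, an inhibitor of leukocyte proteases, at 1003 against 3936 CPM, and SOD3, an extracellular superoxide dismutase, at 245 against 1594 CPM. GPX3, a plasma glutathione peroxidase, and SULT2A1, a steroid sulfotransferase, had log2 ratios of -2.10 and -2.06.

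PTPRC-positive barcodes held these products too, although macrophages among them can make ACP5. ACP5 was at 2149 CPM in low-ribosomal PTPRC-positive and 2312 CPM in ribosome-richer PTPRC-positive barcodes, and thinned to 500 UMIs 80.3% of members held it, against 54.0 and 69.6%. For RBP4 the thinned shares were 62.8% of members against 54.0 and 51.8%, and for UABP-2 46.9% against 40.2 and 33.9%. The part of free RNA in the levels of members was not tested. SAL1, a lipocalin, was near its level in deep barcodes. It was found in 180 members, at 1189 (1109 to 1272) CPM, against 1255 CPM in deep keratin-marked barcodes, 368 CPM in low-ribosomal PTPRC-positive ones and 314 (272 to 360.0) CPM in ESR1-zero low-ribosomal ones. Its UMIs were unevenly spread, from 0 to 69 per member.

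The broadest difference from the deep keratin-marked barcodes ran between classes of transcripts. Of 56 compared genes with very long introns in the human genome, 53 were higher in members and 41 at least 2-fold higher, with a median log2 ratio of 1.21 (0.76 under TMM scaling). Over all genes compared, 19.9% were at least 2-fold higher. LRMDA was found in 242 members and was at 671 CPM against 188 CPM, and CNTNAP2, a cell adhesion protein of neurons, at 77.2 against 15.4 CPM. PRKG1, the cyclic GMP-dependent kinase, was at 50.1 against 5.76 CPM, but its 35 UMIs lay in 9 members. Whether reads inside introns were counted is not given in the sources used here, and the lengths of the pig introns were not used.

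Genes of the respiratory chain, which the nucleus encodes for the mitochondrion, went the other way. All 50 compared were lower in members and 43 at least 2-fold lower, with a median log2 ratio of -1.55. Over all genes compared, 14.6% were at least 2-fold lower. ATP5MC2, a subunit of ATP synthase, was at 50.1 against 247 CPM, and COX8A, of cytochrome c oxidase, at 51.5 against 246 CPM. Of 17 translation factor genes, 16 were lower, with a median of -1.23. TPT1 was at 1149 against 3470.1 CPM and NACA, which binds nascent chains, at 508 against 1659.5 CPM. Of 22 endoplasmic reticulum genes, 21 were lower, with a median of -1.22. SEC61B, of the channel that takes proteins into that compartment, was at 54.4 against 224 CPM. The list of nuclear-retained and splicing RNAs was mostly higher, 16 of 18 genes, with a median of 0.51, which TMM scaling takes to 0.06. Its example LUC7L3, a splicing factor, was at 275 against 132 CPM.

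**Figure D3:**
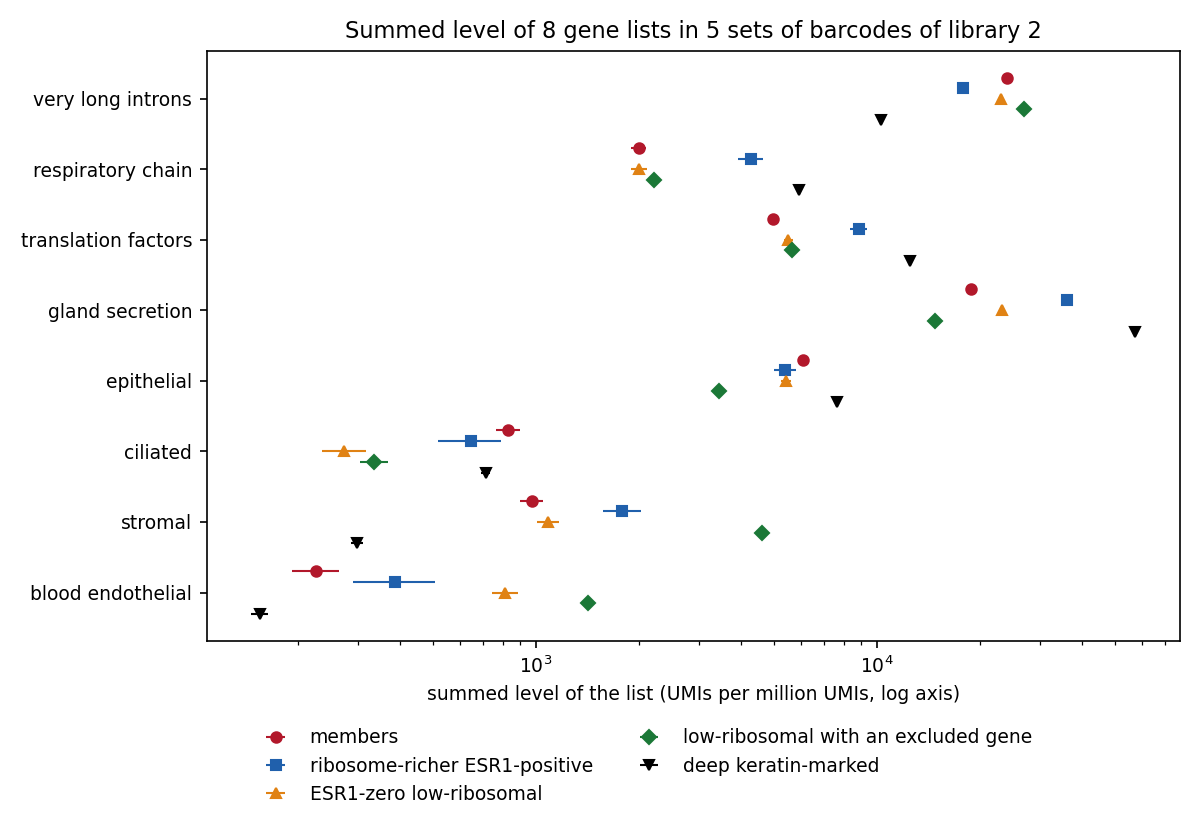
Summed CPM (x axis, log scale) of 8 gene lists (y axis) in members (red circles), ribosome-richer ESR1-positive (blue squares), ESR1-zero low-ribosomal (orange triangles), low-ribosomal with an excluded gene (green diamonds) and deep keratin-marked barcodes (black triangles); bars are exact Poisson 95% intervals. The 3 low-ribosomal sets lie close together for the long-intron, respiratory and translation lists and apart for the stromal and blood endothelial lists, which are drawn without the 5 excluded genes.

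The same transcript classes marked the other low-ribosomal barcodes, with or without a UMI of an excluded gene. Of the 844 with such a UMI, 594 held COL3A1. The epithelial list was at 3537 CPM in these 594, against 1958 CPM in low-ribosomal PTPRC-positive ones. Whether a UMI of an excluded gene marked another lineage in a given barcode was not tested. The long-intron list summed to 24117 CPM in members, 27082 CPM in low-ribosomal barcodes with an excluded gene and 23149 CPM in ESR1-zero ones, against 10270.3 CPM in deep keratin-marked barcodes. Among PTPRC-positive barcodes it was at 22592 CPM in low-ribosomal and 8727 CPM in ribosome-richer ones. The respiratory chain list was at 1999.7 CPM in members, 2057 CPM in low-ribosomal PTPRC-positive and 2069 CPM in low-ribosomal PLVAP-positive barcodes. It was at 5674 CPM in ribosome-richer PTPRC-positive and 4821 CPM in ribosome-richer PLVAP-positive ones. Against all low-ribosomal barcodes with an excluded gene, the median log2 ratio of the members was -0.08 for the respiratory chain, -0.15 for translation factors and -0.10 for the endoplasmic reticulum.

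The ribosomal share also ordered these lists among ESR1-positive barcodes of this depth with the 5 genes at 0. In the 25 barcodes with a share under 1%, long-intron genes took 2.66% of UMIs, the respiratory chain 0.137% and gland secretion 1.37%. In the 80 members from 2.5 to 3% the values were 2.27, 0.252 and 2.66%. In the 52 barcodes from 3 to 3.5%, just outside the rule, they were 2.04, 0.304 and 2.80%, and in the 26 barcodes of 4.5% and over 1.28, 0.641 and 4.78%. The epithelial list stayed between 0.5 and 0.644% in all 8 bins. Next to the limit of 3%, the epithelial share was 0.626% inside and 0.558% outside. Whether any list changed more steeply at the limit than between other bins was not tested. Median totals moved with the bins, from 1941 UMIs in the lowest bin to 853 UMIs from 3.5 to 4.5%, and their part in these shares was not tested.

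**Figure D4:**
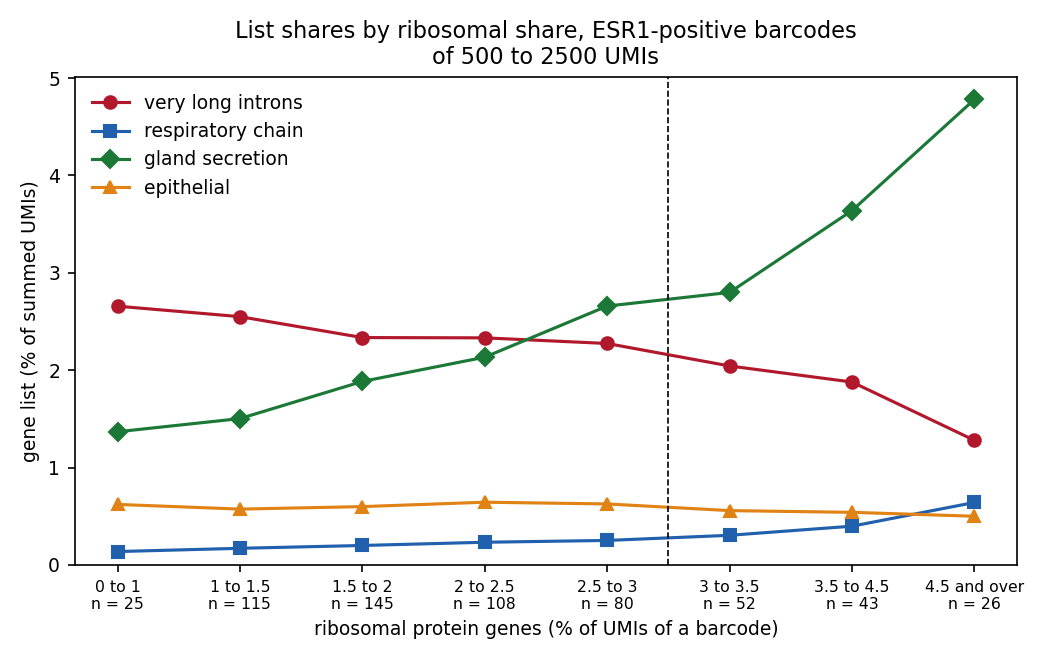
Share of summed UMIs (y axis, percent) of 4 gene lists in 594 ESR1-positive barcodes of 500 to 2500 UMIs with the 5 excluded genes at 0, in bins of ribosomal share (x axis, with the number of barcodes); members lie left of the dashed line. The long-intron share is lower and the gland secretion and respiratory chain shares are higher in bins of higher ribosomal share. The long-intron share is 2.27% from 2.5 to 3% and 2.04% from 3 to 3.5%.

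The 121 ribosome-richer ESR1-positive barcodes differed from members in the same transcript classes. Of 8577 genes compared, 5.16% were at least 2-fold higher in members and 14.7% at least 2-fold lower, which is 443 and 1265 genes. With TMM scaling, 774 were at least 2-fold higher and 864 at least 2-fold lower. The respiratory chain was lower for 42 of 46 genes, 27 of them at least 2-fold, with a median log2 ratio of -1.17. That median was 0 with the ribosomal limit at 5% and against the 4 ribosome-richer barcodes of at least 8%. A ratio undetermined at its low count is set to 0, so a median of 0 does not show that the difference was lost. Translation factors were lower for 15 of 16 genes (median -0.94) and endoplasmic reticulum genes for 19 of 22 (median -0.64). That scaling would add 0.19 to each ratio. Long-intron genes were higher for 41 of 55, 4 at least 2-fold, with a median of 0.28. Gland secretion was lower for 15 of 20 genes, with a median of -1.15, but with both sets limited to 2000 UMIs that median was 0.025. The stromal list was lower for 9 of 10 genes, and its summed level was 971 CPM in members and 1789 CPM in the ribosome-richer barcodes, a direction opposite to that over the deep keratin-marked barcodes.

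Single genes in this comparison rested on few UMIs, because the 121 barcodes held 136972 UMIs in all. The 10 highest log2 ratios ran from 1.70 (STX17) to 2.27 (TLE3, a transcriptional corepressor). TES, a focal adhesion protein, was found in 113 members and was at 263 CPM against 65.7 CPM, and CENPI, a centromere protein, was found in 134 members at 279 CPM against 73.0 CPM. PPP2R5C, PUS7, NRCAM, ARG2, ITCH and TENT4B made up the rest, with 4 to 7 UMIs each in the ribosome-richer barcodes. The 10 lowest ran from -3.82 (JCHAIN, of secreted antibodies) to -2.61 (TFPI2, a protease inhibitor). In 4 of the 10 a single ribosome-richer barcode held most of the UMIs: 41 of 47 for JCHAIN, 88 of 96 for UPTI, the plasmin and trypsin inhibitor of the pig uterus, 17 of 25 for MGP and 14 of 24 for TFPI2. CCL2, a monocyte chemokine, had 8 of 32 UMIs in its highest barcode and was at 27.2 CPM in members against 234 CPM. ADGRL3, ARHGAP6, ZEB2, DLC1 and COX6B had 14 to 18 UMIs in 6 to 13 ribosome-richer barcodes.

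Single genes over the deep keratin-marked barcodes were better counted. The 10 highest log2 ratios ran from 1.73 (RBM4B) to 2.19 (COL1A2). COL1A2 and DCN, a collagen chain and a matrix proteoglycan of fibroblasts, led them. COL1A2 was at 227 CPM in members, 49.8 CPM in deep barcodes and 233 CPM in ribosome-richer PTPRC-positive barcodes, which should lack it. DCN was at 232, 51.0 and 230.3 CPM in the same 3 sets, so the levels of both genes in members were at those of PTPRC-positive barcodes. The others were DLGAP1, a scaffold of synapses, SKI, a corepressor of TGF-beta signalling, SLC7A1, a carrier of cationic amino acids, LRMDA, PRKAG2, a subunit of the AMP-activated kinase, SIPA1L2, CACNA1D, a calcium channel, and RBM4B. PRKAG2 was found in 316 members and was at 973 (901 to 1049) CPM against 285 CPM, SLC7A1 at 778 against 202 CPM, and CACNA1D at 608 against 179.8 CPM. The 10 lowest ran from -2.96 (HRAS, a GTPase of growth signalling) to -2.48 (PSMB6). They held PSMB6 and PSMC3, both of the proteasome, LAMTOR5, of the lysosomal surface, DYNLRB2, a dynein light chain, S100A1 and CIB1, which bind calcium, MARCKSL1, SOD3 and UPTI. HRAS was at 21.5 CPM in members and 167 CPM in deep barcodes. UPTI was at 74.4 against 474 CPM, and 60 of the 810 deep barcodes held all of its 3459 UMIs there.

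Stromal list genes were higher in members than in deep keratin-marked barcodes for 14 of 14 genes, with a median log2 ratio of 1.41. Without COL3A1 and PDGFRA and thinned to 500 UMIs, 39.1% (34.7 to 43.7%) of members held a stromal list UMI, against 41.4% (30.9 to 52.4%) of low-ribosomal PTPRC-positive, 33.5% (30.3 to 37.0%) of ribosome-richer PTPRC-positive and 15.4% (13.0 to 18.1%) of deep keratin-marked barcodes. The interval of the members overlapped those of both PTPRC-positive sets. The part of free RNA in the ratio was not tested.

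Set against the 536 ESR1-zero low-ribosomal barcodes, members were close in most lists. Of 9966 genes compared, 8.09% were at least 2-fold higher and 7.55% at least 2-fold lower in members. The median log2 ratio was 0.07 for the respiratory chain, 0.06 for long-intron genes, 0.19 for epithelial genes and -0.34 for gland secretion, against -0.03 over all genes. The stromal, T and NK cell and muscle and pericyte lists had medians of -0.10, -0.11 and 0.22, the last 2 on 3 and 5 genes. Blood endothelial genes were lower in members for all 14 compared, 13 of them at least 2-fold (median -1.89), macrophage genes for all 5 (median -1.84) and B and plasma cell genes for both compared (median -1.97). FLT1, a receptor of vascular growth factor, had 6 UMIs in members and 71 in ESR1-zero barcodes, a log2 ratio of -3.66 (-5.16 to -2.47). CLEC2B, with 1 UMI in members and 71 in ESR1-zero barcodes, had an exact interval of -11.57 to -3.72. TCF4, LDB2 and MX2 completed the 5 lowest, with log2 ratios of -2.85, -2.71 and -2.57. The median total was 1440 UMIs in members and 1160 UMIs in ESR1-zero barcodes, and the chance of an ESR1 UMI depends on the total.

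Genes of motile cilia were higher in members than in ESR1-zero barcodes. Of 11 ciliated list genes with a symbol 9 were compared, and all 9 were higher, 7 at least 2-fold, with a median log2 ratio of 1.55. SPEF2, of the axoneme, was at 192 CPM against 45.9 CPM, CFAP299 at 213 against 47.5 CPM, and ZBBX at 64.4 against 4.59 CPM. FOXJ1, the transcription factor of ciliated cells, had 17 UMIs in 15 members. Within members, the ciliated list took 0.031% of UMIs in those of 500 to 1000 UMIs and 0.148% in those of 2000 to 2500 UMIs. Whether the higher totals of members entered the ratios over ESR1-zero barcodes was not tested. The 4 genes with the highest ratios over ESR1-zero barcodes, none on the list, were ANKFN1 (4.09), TMEM212 (2.79), EYA2 (2.76) and BEND5 (2.70), of which EYA2 is a phosphatase and transcriptional coactivator. They were found in 29 to 44 of the 473 members each. Against deep keratin-marked barcodes the ciliated list was divided, with 5 of 10 genes higher and 5 lower, and TMM scaling would lower all 10 ratios by the same 0.45.

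The ciliated UMIs lay in few members. The ciliated list summed to at least 3 UMIs in 41 members, to 1 or 2 UMIs in 114 and to 0 in 318, and the highest member held 24. This division was chosen after the values were seen and is a description. In the 41 members, BEND5 was at 1627 (1355 to 1937) CPM and was found in 34 of them, against 17.7 (7.66 to 35.0) CPM in the 318 members without ciliated UMIs. ANKFN1 was at 891 against 2.22 CPM, TMEM212 at 852 against 2.22 CPM and EYA2 at 775 against 37.7 CPM. Several genes frequent in the other members were lower in the 41. CADPS2 was at 671 (502 to 881) against 4456 (4263 to 4655) CPM, LEF1 at 1239.7 against 4713 CPM, and IGF1R, the receptor of insulin-like growth factor 1, at 517 against 1315 CPM. ACP5 was at 1976 against 4551 CPM. Higher in the 41 were KRT8, at 400.3 (272 to 568) against 179.6 (143 to 223) CPM, and the muscle and pericyte list, at 607 against 315 CPM. ESR1 was at 1679 (1403 to 1993) against 1297 (1194 to 1407) CPM. The 114 members with 1 or 2 ciliated UMIs were nearer the 318 than the 41 in these genes, with BEND5 at 29.3 CPM and CADPS2 at 4678 CPM. They were not equal to the 318. TMEM212 was at 41.0 (16.5 to 84.4) CPM in the 114, with its 7 UMIs in 2 members, above its level in the 318. ACP5 was at 3759 (3473 to 4061) CPM in the 114, below its 4551 (4356 to 4752) CPM in the 318. The 41 were deeper, with a median of 1947 UMIs against 1376 UMIs in the 318, and the long-intron and respiratory lists were at 24342 and 2428 CPM in the 41 against 23523 and 1918 CPM in the 318.

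**Figure D5:**
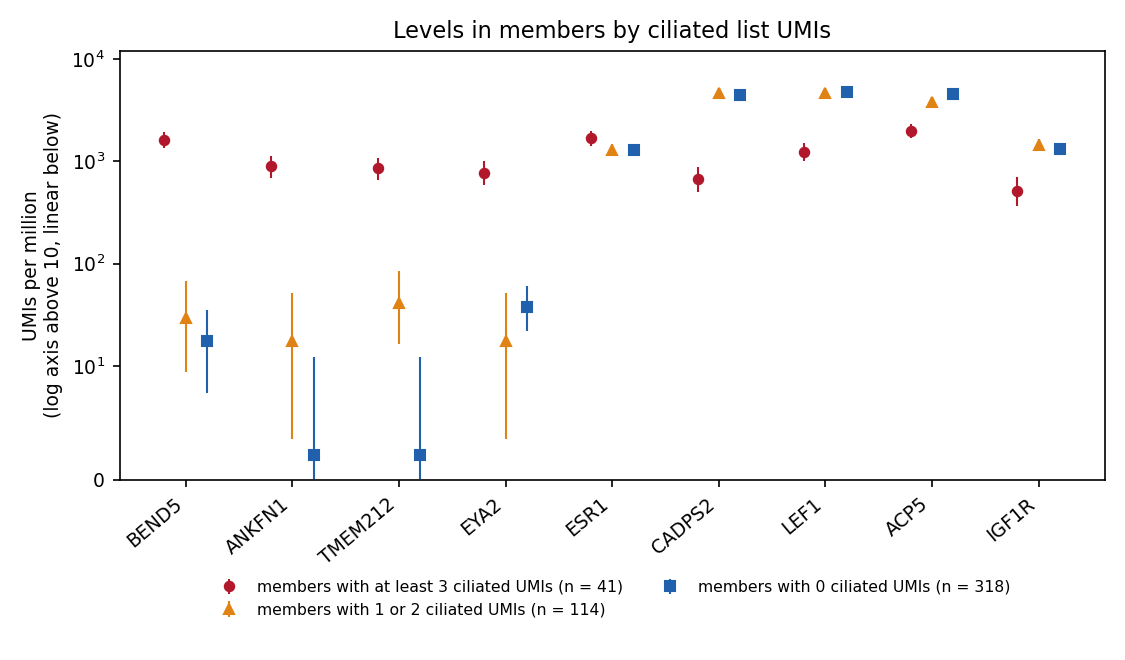
Summed CPM (y axis, log scale above 10 and linear below) of 9 genes (x axis) in members with at least 3 (red circles, 41), 1 or 2 (orange triangles, 114) and 0 (blue squares, 318) ciliated list UMIs; bars are exact Poisson 95% intervals. BEND5, ANKFN1, TMEM212 and EYA2 are high in the 41, and CADPS2, LEF1, ACP5 and IGF1R are lower there than in the other members.

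Of the list of receptivity signalling, 27 of 29 genes had UMIs in members, and the genes of largest ratio included growth factor receptors. IGF1R was found in 324 members and was at 1262 (1179.7 to 1348) CPM, against 788 CPM in ribosome-richer ESR1-positive, 948 CPM in ESR1-zero low-ribosomal, 997 CPM in low-ribosomal PTPRC-positive and 381 CPM in deep keratin-marked barcodes. FGFR2, a receptor of fibroblast growth factors, was found in 251 members and was at 837 (770.3 to 907) CPM, against 431 CPM in ribosome-richer, 609.5 CPM in ESR1-zero and 297 CPM in low-ribosomal PTPRC-positive barcodes and 328 CPM in deep barcodes. BMPR2, a receptor of bone morphogenetic proteins, was at 279 against 105 CPM in deep barcodes, and PLA2G10, a secreted phospholipase, at 38.6 against 117 CPM. Over deep barcodes 5 of 25 genes compared were at least 2-fold higher and 3 at least 2-fold lower, with a median of 0.00. These counts are near the shares over all genes, 19.9% and 14.6%. Of the sets with a UMI of an excluded gene, the low-ribosomal PLVAP-positive barcodes had IGF1R at 1541 CPM, above members.

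Immediate early and stress genes were lower in members than in deep keratin-marked barcodes. Of 27 genes, 22 were lower and 10 at least 2-fold lower, with a median log2 ratio of -0.67. Over all genes compared, 14.6% were at least 2-fold lower. FOS, a transcription factor that rises quickly after stimulation, was found in 424 members and was at 1768 CPM against 5279 CPM, IER2 was at 493 against 1381 CPM, and HSPB1, a small heat shock protein, at 323 against 893 CPM. Genes of proliferation were sparse, with UMIs for 10 of 17 genes and a summed level of 119 CPM in members and 134 CPM in deep barcodes. Of the oestrogen-responsive list, 14 of 18 genes had UMIs, summing to 302 CPM in members, 293 CPM in ESR1-zero low-ribosomal and 403 CPM in deep barcodes. XBP1, a transcription factor of the secretory pathway, was at 144, 127 and 229 CPM in these sets.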

How the data were processed

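The deposited files hold counts of UMIs per gene and barcode for 2 libraries, filtered to called cells. They were made with Cell Ranger, version 6.1.0 per the file headers and 2.1.1 per the submitters' processing notes. The genome build was not given in the sources used here, nor was intron counting. Of 26881 genes, 16128 have no symbol. Library 2 held 87514969 UMIs in 15093 barcodes (median 4335) and library 1 held 45388759 UMIs in 10045 barcodes (median 3431).

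UMIs were summed over the barcodes of each set and scaled to CPM, each level having an exact 95% Poisson interval; ratios came with exact conditional binomial intervals. Intervals and floors cover counting error only. Counts under 3 were set to 3 in a ratio, and a ratio that this turned towards the set under the floor was set to 0 and called undetermined. List genes needed at least 10 UMIs over both sets, and 2-fold was the size at which a gene was counted. Thinning drew 500 UMIs per barcode with seed 1. Scrublet in scanpy 1.11.5 marked doublets, which were kept. The ribosomal pattern takes in 72 genes, 7 of them RPS6K kinases.

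Named genes were ESR1, the excluded genes, the epithelial, gland secretion and steroid receptor lists, and the 15 genes with a symbol of highest CPM in members. The 10 highest and 10 lowest ratios over the ribosome-richer and the deep barcodes, and the 5 highest and 5 lowest over ESR1-zero barcodes, were added, with at least 100 CPM in the higher set. Of other lists, 3 genes of largest ratio with at least 50 CPM were named. Lineage markers named at 0 and an unnamed gene of high level were chosen after their values were seen. Some genes that the rule names are not reported here. The members, lists and comparisons were chosen with earlier results of these data known. Of 637 list entries in 25 lists, 431 have a symbol in the files. With 1 library per group no test was run. Alternatives were other limits of the rule, doublets removed, other scalings (TMM from edgeR 4.0.16 in R 4.3.3), equal weights, thinning, other minimum counts and other comparison barcodes. Python 3.11.15, numpy 2.4.6, scipy 1.17.1, pandas 2.3.3 and matplotlib 3.10.9 were used. Only the ratio and thinning steps were tested on simulated counts.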

Additional observations from a re-analysis of the deposited data

How the results depend on the processing

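No paired analysis was possible because each stage has 1 library and no replicate. Values were recomputed under 16 alternatives, 14 planned and 2 chosen after seeing the data, for 126 results, and 966 of 999 values of results past 2-fold kept their direction. With the ribosomal limit at 2% there were 285 members, and the stromal median over deep keratin-marked barcodes was 1.21. With the limit at 5% the respiratory chain median over ribosome-richer barcodes was 0, the value given to an undetermined ratio. UPTI reversed there to 0.71. With totals of 500 to 2000 UMIs, 265 genes were 2-fold higher over ribosome-richer barcodes (443 in the main comparison), and the gland secretion median (0.025) and UPTI (0.18) reversed. With totals to 3500 UMIs the count was 1605 and the respiratory chain median -1.43. With ESR1 of at least 2 UMIs there were 228 members, 265 such genes and a long-intron median over deep barcodes of 1.32. TMM scaling gave 774 genes higher over ribosome-richer barcodes. Over deep barcodes it gave 1041 higher and 3160 lower (2637 and 1940 in the main comparison), and medians of 0.96 for stromal, 0.76 for long-intron and -2.00 for respiratory chain genes. Thinned, 254 genes were higher and 560 lower over ribosome-richer barcodes (lower: 1265 in the main comparison), 488 higher over ESR1-zero barcodes (806), with a ciliated median of 2.30, and 1570 higher over deep barcodes. A floor of 1 UMI gave 1113 genes higher over ribosome-richer barcodes. Against the 4 ribosome-richer barcodes of at least 8%, 68 were higher and 256 lower. The gland secretion and respiratory chain medians were then 0, again the value of an undetermined ratio. With deep barcodes chosen by ESR1 the stromal median was 1.21 and the long-intron median 1.08. The cause of these changes was not tested. Lineage sums were given without the 5 excluded genes, a choice also made after seeing the data. The ribosome-richer set held 136972 UMIs, so its single genes rest on few UMIs.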
